A study of Rattus norvegicus with 8 samples.

Results

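MicroRNAs that are described as restraining osteoblast differentiation were followed in bone around titanium implants in hyperlipidemic and normal rats. They were chosen by name, with earlier results of these data known. The rule took the rows of the deposited miRNA table called rno-miR-204, rno-miR-211, rno-miR-31a, rno-miR-135a, rno-miR-135b, rno-miR-138 or rno-miR-338 with any copy number or arm, which gave 13 of its 974 rows. All 8 libraries came from femur bone of male Wistar rats, 12 to 13 weeks old, that carried titanium implants in the shafts of both femurs. The 4 hyperlipidemic libraries came from rats given a high-fat diet and the 4 normal libraries from rats given a normal diet, each for 8 weeks, and the labels name no genetic change in either group. Bone within 1 mm of the implant was taken 10 days after implantation and freed of muscle, and the labels describe no step that removed marrow or blood. The labels do not say whether each library is 1 rat or a pool, or whether a rat gave more than 1 library, so p-values measure the spread between these libraries. The comparison asks how these miRNAs differ between the diets at the implant.

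A microRNA guides a silencing complex to messenger RNAs that pair with its seed, the bases near its 5′ end, and lowers their translation and stability. Osteoblasts arise from mesenchymal progenitors under the transcription factors Runx2 and then Osterix, and each of these miRNAs has been described as acting on that route. In mouse and human cells miR-204 and miR-211 act on Runx2, and in mouse cells miR-135a and miR-338 do so. MiR-31 acts on Osterix in rat and human marrow stromal cells. MiR-138 acts on focal adhesion kinase, and miR-135b delays mineralization, in human stromal cells. These roles are background. The table holds no messenger RNA, so whether the miRNAs restrained osteoblasts here was not measured.

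The mature sequences of all 13 rows were found in RefSeq (GRCr8), and those of the 8 rows with enough reads to be tested are shown with miR-135b-5p, because they show which rows can act on the same targets or share reads. Capitals mark the seed, bases 2 to 8 from the 5′ end.
miR-204-5p: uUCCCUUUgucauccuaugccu
miR-211-5p: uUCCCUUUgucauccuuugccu
miR-31a-5p: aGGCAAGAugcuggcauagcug
miR-31a-3p: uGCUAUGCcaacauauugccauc
miR-338-3p: uCCAGCAUcagugauuuuguuga
miR-338-5p: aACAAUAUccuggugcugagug
miR-138-5p: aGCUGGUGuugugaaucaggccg
miR-135a-5p: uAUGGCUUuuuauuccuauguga
miR-135b-5p: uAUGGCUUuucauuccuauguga
MiR-204-5p and miR-211-5p share a seed and differ by 1 substitution, A17U, counted from the 5′ end of miR-204-5p. MiR-135a-5p and miR-135b-5p also share a seed and differ by U11C, counted likewise from miR-135a-5p. Among the 544 rno- rows of the table with a RefSeq sequence, no other row carried any of the seeds above. A read with an error at the 1 differing base could be counted under the other name, so the rare partner in each pair is uncertain.

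The hairpins lie at separate loci. In GRCr8 the hairpin of miR-204 is at chr1:229743461-229743570 (+ strand), within the span of Trpm3, and that of miR-211 at chr1:127189328-127189433 (+ strand), within the span of its paralogue Trpm1. The hairpin of miR-338 is at chr10:105796342-105796407 (- strand) within Aatk, a kinase gene of neural tissue. That of miR-31a is at chr5:108714849-108714954 (- strand) within a long noncoding RNA. The mature miR-138-5p is made by hairpins on chromosomes 8 and 19 and its reads cannot be assigned to either. RefSeq also places Mir3065 over Mir338 and Mir3554 over Mir31, on the opposite strand. MiR-3065-5p had 4 reads in each group, and the deposited table has no row named miR-3554.

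Values are reads per 1000000 (RPM) scaled within the catalogued rno- class. One rno- read was worth 0.208 to 0.378 RPM in hyperlipidemic and 0.572 to 1.01 RPM in normal libraries, whose scales rested on 2643507 to 4809898 and 990800 to 1748968 reads, so low values are less precise in normal libraries. Normal replicates 3 and 4 stood apart. Erythroid miRNAs (miR-144, miR-451 and miR-486, 5 of 5 rows above 0) made up 8.95% and 7.77% of their rno- signal, against 17.9% and 20.2% in the other normal and 19.2% to 33.1% in hyperlipidemic libraries. Leukocyte miRNAs (miR-142 and miR-223, 4 of 4 rows above 0) made up 9.34% and 6.08% in normal replicates 3 and 4. They made up 17.99% and 20.2% in the other normal and 14.8% to 19.96% in hyperlipidemic libraries. The mesenchymal miR-199a and miR-214, which bone stroma carries, made up 2.49% to 5.58% in hyperlipidemic and 3.36% to 7.11% in normal libraries. RPM is relative, and fewer cells of a type and less of a miRNA per cell cannot be told apart in bulk bone.

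None of the 13 miRNAs passed the test between hyperlipidemic and normal bone, by limma on log2(RPM + 0.475). Of the 13, 8 were above the filter on low values (above 0 in at least 4 libraries and a mean of at least 2.375 RPM). None of these passed an adjusted p of 0.05, where 0.718% of the 696 miRNAs tested did and none of the 396 rno- miRNAs did. None had an unadjusted p under 0.05 by limma either, where 17.8% of all miRNAs and 15.7% of rno- miRNAs tested had one. Of the 21 alternatives 3 gave 1 such miRNA each, which was miR-338-3p with TMM factors on rno- miRNAs alone (limma unadjusted p = 0.0461) and without normal replicate 2 (0.0212), and miR-31a-5p without hyperlipidemic replicate 2 (0.0384). The groups overlapped for all 8, where 12.6% of all and 11.6% of rno- miRNAs tested had groups without overlap. Among the 8, 6 log2 folds were below 0, and 61.9% of rno- miRNAs tested were below 0. The median log2 fold was -0.45 over the 8, -0.20 over rno- miRNAs and -0.10 over all tested. In the authors' deposited table all 13 carry the call for no change, and the lowest adjusted p among them is 0.379.

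**Figure D1:**
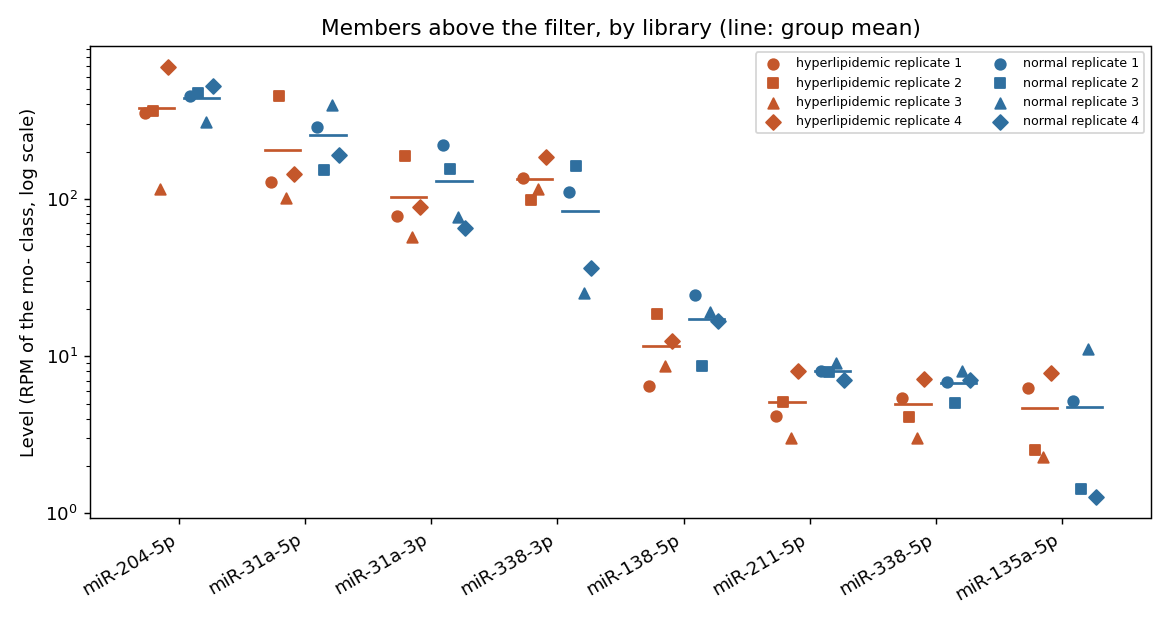
Level of each of the 8 tested miRNAs in each library, in RPM of the rno- class on a log axis, with the group mean as a line. The groups overlap for every miRNA, and normal replicates 3 and 4 lie lowest for miR-338-3p, at 25.2 and 36.6 RPM.

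These miRNAs made up a small part of the catalogued signal. The 13 rows summed to 717, 1128, 408 and 1140 RPM in hyperlipidemic and to 1114, 965, 853 and 850 RPM in normal libraries. As a share of the catalogued signal this was 0.0950% ± 0.0402 with the high-fat diet and 0.108% ± 0.0127 with the normal diet (SD, n = 4 each), and the normal values lay inside the hyperlipidemic range. The hairpins of miR-204 and miR-211 held 43.0% ± 14.96 and 47.7% ± 11.3 of this sum (SD, n = 4 each, hyperlipidemic and normal), and the hairpin of miR-31a held 36.1% ± 15.6 and 40.7% ± 12.0. That of miR-338 held 18.7% ± 8.33 in hyperlipidemic and 9.19% ± 6.07 in normal bone. Their order by mean level was miR-204-5p, miR-31a-5p, miR-31a-3p, miR-338-3p, miR-138-5p, miR-211-5p, miR-338-5p and miR-135a-5p. One read is 1 mature miRNA of 22 or 23 bases in this order, but adapter ligation favours some sequences. The ranges of neighbours in this order overlapped over the 8 libraries, except that miR-338-3p (25.2 to 185 RPM) was above miR-138-5p (6.45 to 24.6 RPM) throughout. Compared within each library, miR-138-5p was above miR-211-5p in 8 of 8 and miR-31a-5p above miR-31a-3p in 7 of 8. MiR-31a-3p was above miR-338-3p in 4 of 8 libraries, so their order is not settled.

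MiR-204-5p, which acts on Runx2 and is also abundant in pigment epithelium, was the most abundant of the 13 and ranked 107 of the 604 rno- rows by mean. It stood at 350, 361, 115 and 687 RPM in hyperlipidemic replicates 1 to 4 and at 450.6, 472, 308 and 524 RPM in normal replicates 1 to 4. Its lowest and its highest value were both hyperlipidemic, and the normal libraries lay between them. The means were 378 ± 235 and 439 ± 92.5 RPM (SD, n = 4 each), with a log2 fold of -0.44 (SE 0.49, 95% interval -1.55 to 0.66, limma adjusted p = 0.624). Without hyperlipidemic replicate 3, the lowest library, the log2 fold was 0.041, and without hyperlipidemic replicate 4, the highest, it was -0.81. MiR-204-3p, the other arm, had 6 reads in all, so that the 5p arm held 99.6% to 100% of the reads of this hairpin in each library.

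MiR-211-5p carries the same seed and is known from melanocytes, in which Trpm1 is expressed. It stood at 4.16, 5.08, 3.03 and 8.09 RPM in hyperlipidemic and at 8, 7.88, 9.08 and 7.06 RPM in normal replicates 1 to 4. The normal libraries were close together, and 3 of the 4 hyperlipidemic ones were below all of them, while hyperlipidemic replicate 4 was among them. The log2 fold was -0.68 (SE 0.47, 95% interval -1.74 to 0.38, limma adjusted p = 0.437), on 8 to 27 reads a library in hyperlipidemic and 9 to 14 in normal bone. Its spread within groups was low, at the percentile 26.8 of rno- miRNAs tested, against the percentile 80.1 for miR-204-5p. MiR-204-5p made up 97.1% to 98.8% of the summed level of this seed in every library, so the level of the seed followed miR-204-5p.

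MiR-31a-5p (rno-miR-31a-5p) acts on Osterix and is also known from epithelia and from osteoclasts. It stood at 128.5, 450.7, 101 and 143 RPM in hyperlipidemic and at 286, 153, 396 and 189 RPM in normal replicates 1 to 4. Hyperlipidemic replicate 2 was the highest of all 8 libraries, and the other 3 hyperlipidemic libraries were the lowest. The means were 205.9 ± 164 and 256 ± 109 RPM (SD, n = 4 each), with a log2 fold of -0.49 (SE 0.50, 95% interval -1.62 to 0.65, limma adjusted p = 0.607). Without hyperlipidemic replicate 2 the log2 fold was -0.96 and its adjusted p by limma 0.334, while it was -0.24 without hyperlipidemic replicate 3 and -0.25 without normal replicate 3. Epithelial miRNAs, whose tissue also carries miR-31, had 12 of 12 rows above 0 in hyperlipidemic and 9 in normal libraries, and summed to 344 to 437 RPM in hyperlipidemic and 200.2 to 375 RPM in normal libraries. None of these rows was at 0 in all 8 libraries, and in hyperlipidemic replicate 2 the sum was 427 RPM. The rows at 0 in every normal library were miR-203a-5p, miR-200c-5p and miR-200a-5p, with means of 0.716, 0.10 and 0.0375 RPM over the 8 libraries. In hyperlipidemic libraries they ran from 0.95 to 2.4, 0 to 0.42 and 0 to 0.3 RPM. A count of 0 allows 1.72 to 3.03 RPM in a single normal library. The last 2 rows therefore cannot show a difference at this depth. MiR-203a-5p was above 0 in 4 libraries, all hyperlipidemic, but lay below the filter, and its difference was not tested. By mean, most of the sum was miR-141-3p, at 240.5 RPM in hyperlipidemic and 167.4 RPM in normal bone. Among the epithelial rows tested, miR-141-3p (0.72, SE 0.45), miR-203a-3p (0.30, SE 0.32), miR-203b-3p (1.87, SE 0.73) and miR-205 (1.72, SE 0.36) had log2 folds above 0. Those of miR-200a-3p (-1.10, SE 0.91) and miR-200c-3p (-0.23, SE 0.36) were below 0. Only miR-205 had groups without overlap, and its limma adjusted p was 0.0584. The part of epithelium in the miR-31a level was not tested.

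MiR-31a-3p, from the other strand of the same hairpin, stood at 78.0, 187, 57.5 and 89.0 RPM in hyperlipidemic and at 221, 155, 76.7 and 65.5 RPM in normal replicates 1 to 4. Normal replicates 1 and 2 and hyperlipidemic replicate 2 were high, and normal replicates 3 and 4 lay among the hyperlipidemic libraries. Its log2 fold was -0.30 (SE 0.50, 95% interval -1.42 to 0.82, limma adjusted p = 0.744). With 1 library left out it ran from -0.64 (without hyperlipidemic replicate 2) to 0.014 (without normal replicate 1), and without normal replicates 3 and 4 it was -0.99. The arms followed each other only in part, with Pearson's r of 0.53 on the log2 scale over the 8 libraries. That is a description only, since both arms in a library share its scale and its blood content.

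MiR-338-3p (rno-miR-338-3p), which acts on Runx2 and on the receptor Fgfr2 and is also known from oligodendrocytes, had the largest log2 fold in size of the 8. It stood at 136, 97.8, 116 and 185 RPM in hyperlipidemic and at 110, 161, 25.2 and 36.6 RPM in normal replicates 1 to 4. Normal replicates 3 and 4 were far below the other 6 libraries, and normal replicates 1 and 2 lay inside the hyperlipidemic range. The low values rested on 25 and 57 reads, with exact Poisson 95% intervals of 16.3 to 37.2 and 27.7 to 47.4 RPM, against 87.1 RPM as the lowest bound in hyperlipidemic libraries. These intervals cover counting error only. The means were 134 ± 37.5 and 83.3 ± 64.2 RPM (SD, n = 4 each), with a log2 fold of 1.02 (SE 0.58, 95% interval -0.29 to 2.33, limma adjusted p = 0.345). Without normal replicates 3 and 4 the log2 fold was -0.037 (SE 0.34). Without normal replicate 3 alone it was 0.58, without normal replicate 4 alone 0.76, and without normal replicate 2 alone 1.46. Of all libraries, normal replicates 3 and 4 had the lowest erythroid and leukocyte shares, as given above, and high mesenchymal shares of 6.51% and 7.11%. The part of that difference in the miR-338-3p level was not tested. The authors' deposited table gives miR-338-3p a 1.93-fold higher level in hyperlipidemic bone, with an adjusted p of 0.596.

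**Figure D2:**
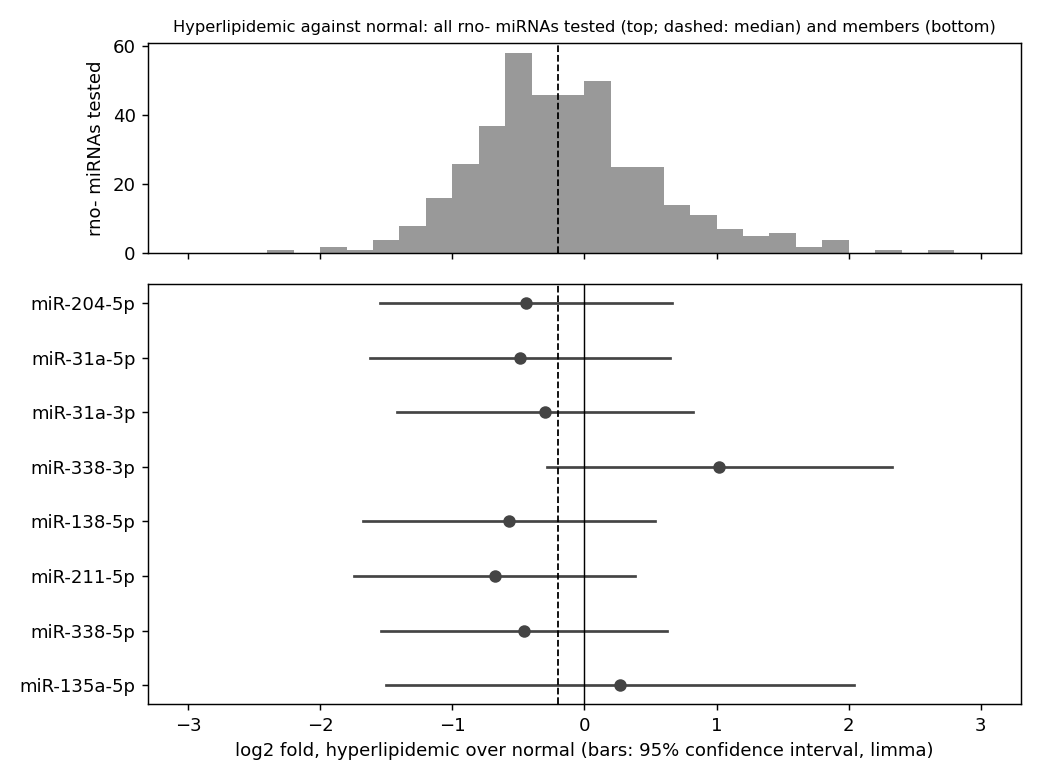
Log2 fold of hyperlipidemic over normal bone for the 396 rno- miRNAs tested (top, number per bin, dashed line at the median of -0.20) and for each of the 8 miRNAs (bottom, bars are 95% confidence intervals from limma). Every interval spans 0, and miR-338-3p (1.02) and miR-135a-5p (0.27) lie above 0.

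MiR-338-5p did not share the low values of its partner arm. It stood at 5.41, 4.13, 3.03 and 7.19 RPM in hyperlipidemic and at 6.86, 5.01, 8.07 and 7.06 RPM in normal replicates 1 to 4. Normal replicates 3 and 4 were among the highest libraries, where miR-338-3p was lowest, though on 8 and 11 reads. The log2 fold was -0.46 (SE 0.48, 95% interval -1.54 to 0.63, limma adjusted p = 0.615), and it was -0.27 without hyperlipidemic replicate 3. Over the 8 libraries the arms of miR-338 had a Pearson's r of -0.43 on the log2 scale, a description only.

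The ratio of the arms of a hairpin does not depend on how a library was scaled. Of the reads of both arms of miR-338, the 3p arm held 96.2%, 95.95%, 97.5% and 96.3% in hyperlipidemic replicates 1 to 4 and 94.1%, 97.0%, 75.8% and 83.8% in normal replicates 1 to 4. Normal replicates 3 and 4 were the lowest, with Wilson 95% intervals of 59.0% to 87.2% and 73.3% to 90.7%, and every other library was at 94.1% or above. The log2 ratio of 5p over 3p was -4.65 ± 0.281 in hyperlipidemic and -3.17 ± 1.5 in normal bone (SD, n = 4 each). The difference was -1.48 and missed the threshold of 0.05 (p = 0.114 by a two-sided exact permutation test, 0.229 adjusted over the 2 hairpins, where 0.0286 is the smallest unadjusted p that 4 against 4 can give). Without normal replicates 3 and 4 it was -0.25 (exact permutation p = 0.600).

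For miR-31a the 5p arm held 62.2%, 70.6%, 63.7% and 61.7% of the reads of both arms in hyperlipidemic and 56.4%, 49.5%, 83.8% and 74.3% in normal replicates 1 to 4. Normal replicates 3 and 4 were the highest and normal replicates 1 and 2 the lowest, with all 4 hyperlipidemic libraries between them. In the same 2 normal libraries, therefore, the 3p arm was a smaller part of each hairpin than in the other 6. The log2 ratio of 5p over 3p was 0.87 ± 0.269 in hyperlipidemic and 1.06 ± 1.09 in normal bone (SD, n = 4 each), a difference of -0.19 (exact permutation test, two-sided p = 0.800, and also 0.800 adjusted over the 2 hairpins). Without normal replicate 3 the difference was 0.25, and without normal replicates 3 and 4 it was 0.70 (exact permutation p = 0.0667, the smallest that 4 against 2 can give). Leaving out the 2 highest libraries separates the groups, so that p follows from the choice of libraries. Over the 127 rno- hairpins with both arms tested, the median log2 ratio was 1.98 and 1.92 in normal replicates 3 and 4 and between 1.48 and 1.90 in the other 6 libraries. A difference in size as large as that of miR-338 was met by 8 of the 127, itself included, and one as large as that of miR-31a by 102.

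**Figure D3:**
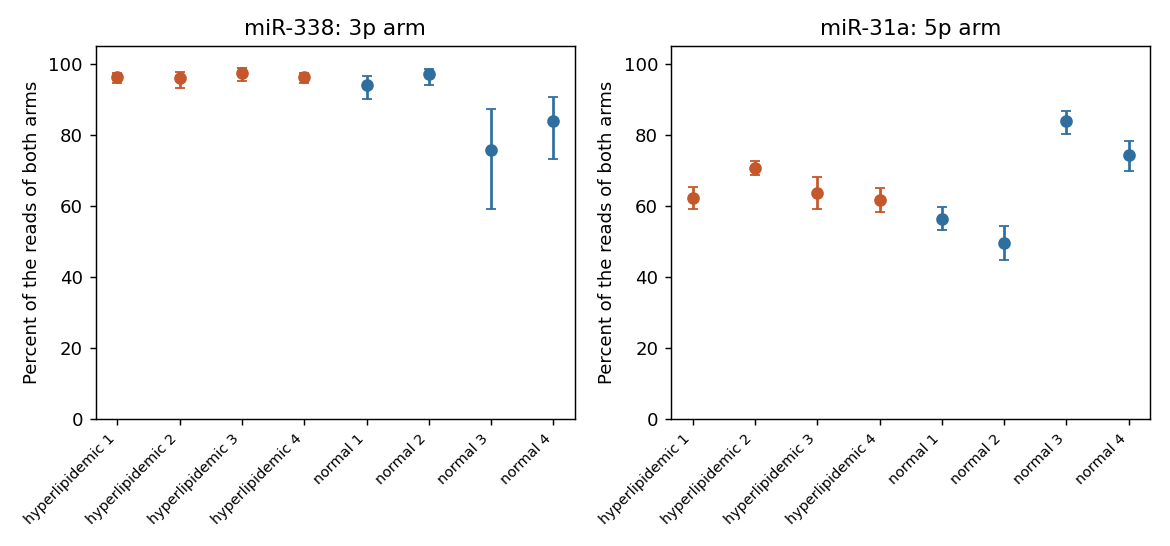
Share of the reads of both arms held by miR-338-3p (left) and by miR-31a-5p (right) in each library, in percent, with Wilson 95% intervals that cover counting error only. Normal replicates 3 and 4 are lowest on the left, at 75.8% and 83.8%, and highest on the right, at 83.8% and 74.3%.

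MiR-138-5p, which acts on focal adhesion kinase and is best known from neurons, stood at 6.45, 18.4, 8.70 and 12.6 RPM in hyperlipidemic and at 24.6, 8.60, 19.2 and 16.7 RPM in normal replicates 1 to 4. Hyperlipidemic replicates 1 and 3 and normal replicate 2 were low, and the groups overlapped. The log2 fold was -0.57 (SE 0.49, 95% interval -1.68 to 0.53, limma adjusted p = 0.526), on 12 to 58 reads a library. With 1 library left out it ran from -0.86 (without normal replicate 2) to -0.34 (without hyperlipidemic replicate 1). Both of its 3p arms, which would tell the hairpins apart, were near the limit of detection. MiR-138-1-3p had 1 read and miR-138-2-3p had 5 reads over the 8 libraries. A neural and glial list (13 rows, 12 of them above 0 in each group) summed to 449 to 685 RPM in hyperlipidemic and 552 to 807 RPM in normal libraries. Most of that was miR-128-3p, which many tissues carry, and the neuron-restricted miR-124-3p had a mean of 3.49 RPM. MiR-219a-5p, known from oligodendrocytes as miR-338-3p is, had the second highest mean of the list. It stood at means of 140.6 RPM in hyperlipidemic and 105.3 RPM in normal bone, with overlap (log2 fold 0.46, SE 0.28, limma adjusted p = 0.387). The part of nerve in the levels of miR-138-5p and miR-338-3p was not tested.

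MiR-135a-5p, which acts on Runx2, varied most within groups of the 8 miRNAs. It stood at 6.24, 2.54, 2.27 and 7.79 RPM in hyperlipidemic and at 5.15, 1.43, 11.1 and 1.28 RPM in normal replicates 1 to 4. Both groups held high and low libraries, and normal replicates 3 and 4 held the highest and the lowest value. The lowest values rested on 2 reads each, in normal replicates 2 and 4. The means were 4.71 ± 2.74 and 4.74 ± 4.602 RPM (SD, n = 4 each), and the log2 fold was 0.27 (SE 0.79, 95% interval -1.5 to 2.04, limma adjusted p = 0.868). It was below 0 without normal replicate 2 (-0.068), without normal replicate 4 (-0.11) or without hyperlipidemic replicate 4 (-0.0094), and 0.80 without normal replicate 3. MiR-135b-5p, its seed partner, had 11 reads and miR-135a-3p had 1 read over the 8 libraries. These and the other rows that were not tested, 5 in all, lay at or below 1.92 RPM in every library. A count of 0 allows up to 0.624 to 1.13 RPM in hyperlipidemic and 1.72 to 3.03 RPM in normal libraries (3 reads each), so a difference in them was not detectable at this depth.

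Of the 28 pairs among the 8, Pearson's r was positive for 22. It was positive for 20 of the 21 pairs without miR-338-3p and negative for 5 of its own 7 pairs. Over all pairs, r on the log2 scale ran from -0.52 (miR-338-3p with miR-31a-5p) to 0.85 (miR-211-5p with miR-338-5p), over 8 libraries. All miRNAs of a library share its scale. MiR-204-5p and its seed partner miR-211-5p had an r of 0.75 but a Spearman's rho of 0.40, and hyperlipidemic replicate 3 was lowest and hyperlipidemic replicate 4 high for both. Hyperlipidemic replicate 3 was the lowest library for 5 of the 8, which were miR-204-5p, miR-31a-5p, miR-31a-3p, miR-211-5p and miR-338-5p. It also had the largest erythroid share, 33.1%. With the values rescaled without erythroid miRNAs, the log2 folds of these 5 were -0.26, -0.30, -0.12, -0.51 and -0.29, in that order. That of miR-338-3p was then 1.21. The part of the erythroid share in the low values of hyperlipidemic replicate 3 was not tested.

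The rno- miRNAs with the pattern most like miR-338-3p were miR-374-5p (Pearson's r 0.98), miR-15b-5p (0.94), miR-145-5p (0.94) and miR-29c-3p (0.93), on the log2 scale over 8 libraries. All 4 were lower in normal replicates 3 and 4 than in any other library, which their choice by r favours. MiR-15b-5p, for example, stood at 2137 and 2030 RPM there, at 4718 and 5514 RPM in normal replicates 1 and 2, and at 5101 to 5727 RPM in hyperlipidemic libraries. Most like miR-31a-5p were miR-503-5p (Pearson's r 0.88), miR-541-5p (0.85), miR-212-3p (0.83) and miR-138-5p (0.81), the last one of the 13. These likenesses rest on 8 libraries and carry no test.

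**Figure D4:**
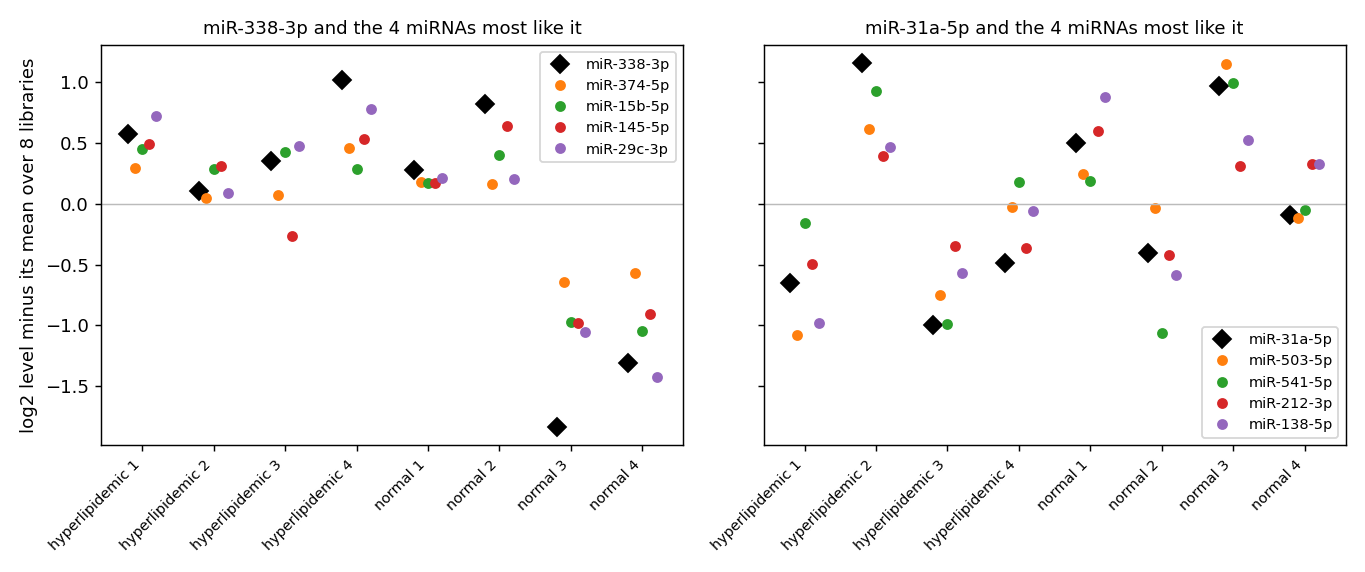
Log2 level minus its mean over the 8 libraries for miR-338-3p (left) and miR-31a-5p (right), as diamonds, and for the 4 rno- miRNAs with the highest Pearson's r to each, as circles. The miRNAs on the left share low values in normal replicates 3 and 4, where miR-338-3p is at -1.83 and -1.31.

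Other miRNAs of the same pathway were counted from lists of names, chosen with earlier results of these data known. Other miRNAs described as acting on Runx2 (miR-23a, miR-30c, miR-34c, miR-133a, miR-137, miR-205 and miR-217) gave 12 rows. Of these 8 were tested, none passed, 4 had log2 folds above 0 and 4 below, and the median was 0.29. At an unadjusted p under 0.05 by limma 1 of these was higher and 1 lower, and 3 had groups without overlap, where 15.7% and 11.6% of rno- miRNAs tested had these properties. The higher one was miR-205, named after its value was seen (log2 fold 1.72, SE 0.36, limma adjusted p = 0.0584). The most abundant rows counted were miR-30c-5p at a log2 fold of -0.40 (SE 0.19, limma adjusted p = 0.294) and miR-23a-3p at 0.61 (SE 0.33, limma adjusted p = 0.337). After them came miR-133a-3p, a muscle miRNA, at 0.70 (SE 1.16, limma adjusted p = 0.744) and miR-34c-5p at -1.35 (SE 0.39, limma adjusted p = 0.122). The list also held miR-218, but rows named miR-218a were not matched. MiR-218a-5p (log2 fold -0.44, SE 0.27, limma adjusted p = 0.374) is therefore in none of these counts. It was more abundant than miR-34c-5p, at means of 512 RPM in hyperlipidemic and 683 RPM in normal bone. Of 20 rows of miRNAs described as promoting osteoblasts, 18 were tested and none passed. Of these 8 were above 0 and 10 below, with a median log2 fold of -0.04, and at an unadjusted p under 0.05 by limma 2 were higher and 1 lower (15.7% of rno- miRNAs tested). None of the 18 had groups without overlap. Its most abundant rows were miR-29a-3p at -0.03 (SE 0.20), miR-29b-3p at 1.56 (SE 0.65), miR-20a-5p at -0.45 (SE 0.27) and miR-22-3p at -0.74 (SE 0.32). The folds within each list thus went both ways, as did those of the 8 miRNAs.

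**Figure D5:**
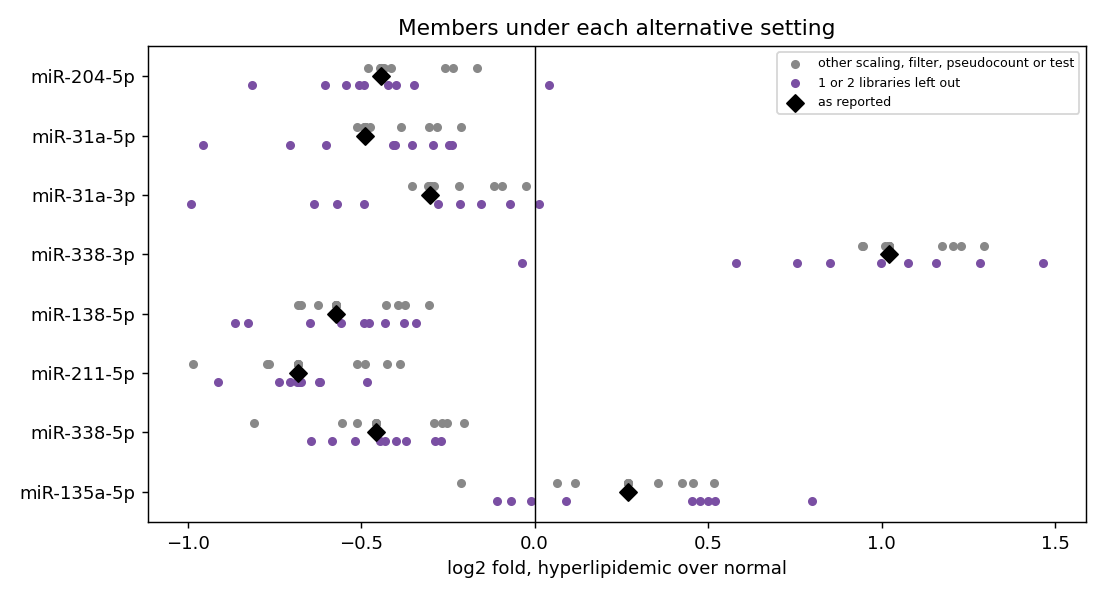
Log2 fold of hyperlipidemic over normal bone for each of the 8 miRNAs as reported (diamond), with another scaling, filter, pseudocount or test (grey), and with 1 or 2 libraries left out (purple). MiR-338-3p runs from -0.037 to 1.46, and miR-138-5p, miR-211-5p, miR-31a-5p and miR-338-5p stay below 0 under every setting shown.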

How the data were processed

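Small RNA was ligated to adapters at both ends, products of 140 to 160 bp were excised after electrophoresis and sequenced as 50-bp single reads, per the labels' protocols. Per the submitters' processing notes, bcl2fastq (1.8.4) and build Rnor_6.0 were used. No source used here gives the aligner or the counting rule. The authors deposited 1 table with a signal per library, named FPKM, which is in reads per 1000000 scaled separately in 604 catalogued (rno-) and 370 predicted miRNAs. The authors' deposited table also gives a fold (ratio), its log2, a p-value and an adjusted p-value from a test that no source used here names, and its calls follow a log2 size of 1.

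Low values in each class and library were whole multiples of 1 step (100% of values up to 20 reads, within 0.1 read). Read numbers were taken as values divided by the step. The classes have different steps. As an alternative the rno- reads were modelled with limma's voom, and other count models were not run. Limma 3.58.1 in R 4.3.3 (eBayes with a variance trend, two-sided, Benjamini-Hochberg over 696 rows) was run on log2(value + 0.475), the pseudocount being the median of each library's smallest nonzero value. The code was tested on simulated data. Arm ratios were compared by exact permutation tests. Members, lists and alternatives were chosen with earlier results of these data known, and all 13 rows are named. From each list the 4 highest means among the rows matched by name are given, and likeness was ranked among the 396 rno- rows tested. Sequences and gene spans are from RefSeq GRCr8, a build other than that of the table. Shared replicate numbers were not taken as pairs.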

Additional observations from a re-analysis of the deposited data

Results flagged for a closer look

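One of 22 groups of 4 values checked (8 miRNAs, 2 arm ratios and the summed level, in each group) had a library far from the other 3. MiR-31a-5p in hyperlipidemic replicate 2 stood at 450.7 RPM, with the next highest hyperlipidemic library at 143 RPM, and the gap was 0.878 of the range of the group, past the critical value of Dixon's test. Chance flags about 1 in 20 groups. MiR-31a-3p was also highest of the hyperlipidemic libraries there, at 187 RPM.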

How the results depend on the processing

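None of the 13 miRNAs, as far as the filter of each let them be tested, passed under the 21 alternatives run, and 158 of 165 log2 folds kept their direction. Directions turned for miR-135a-5p with quantile normalization (-0.21), without hyperlipidemic replicate 4 (-0.0094), without normal replicate 2 (-0.068) and without normal replicate 4 (-0.11), for miR-204-5p without hyperlipidemic replicate 3 (0.041), for miR-31a-3p without normal replicate 1 (0.014) and for miR-338-3p without normal replicates 3 and 4 (-0.037). With 1 library left out these 4 ran from -0.11 to 0.80, -0.81 to 0.041, -0.64 to 0.014 and 0.58 to 1.46, in that order. The median over the tested miRNAs ran from -0.57 to -0.15 with 1 library left out. Median-of-ratios factors moved the median of all miRNAs by 0.20 and that of the 8 to -0.25. TMM factors moved the rno- median by 0.26 and that of the 8 to -0.18. Rescaling without erythroid miRNAs moved the rno- median by 0.17 and that of the 8 to -0.27. The arm difference of miR-31a turned without normal replicates 3 and 4 (0.70), and ran from -0.55 to 0.25 with 1 library left out. That of miR-338 ran from -2.05 to -0.95. The -2.05 without normal replicate 2 had an unadjusted exact permutation p of 0.0286, the smallest that 4 against 3 can give. Normal replicate 2 was the only normal library inside the hyperlipidemic range of this ratio. Leaving it out separates the groups, so that p follows from the choice of library. The causes were not tested.

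Over all miRNAs 5 passed. All 5 are predicted miRNAs, at means of 11.4 to 24.3 RPM of the predicted class in hyperlipidemic and 0 in normal bone. One predicted read was worth 6.94 to 8.66 RPM in hyperlipidemic libraries, so these 5 rest on few reads. The count became 0 with 1 read as pseudocount, a mean of at least 10 (which tests 1 of the 5) or the replicate block, 8 with median-of-ratios factors, 9 with quantile normalization and 12 with a pseudocount of 5, and 0 to 12 with 1 library left out (12 without normal replicate 1). Settings that test rno- miRNAs alone leave out the 5, and other miRNAs passed there, 3 with the same values, 1 with TMM factors and 0 with voom. Same-numbered libraries did not clearly deviate together (r of 0.14, -0.37, -0.32 and -0.01). So few correlations cannot show whether the numbers pair the samples, and they were not taken as pairs. The block left the median of the 8 at -0.45 and the arm differences at -1.48 and -0.19. The 2 count models planned on recovered reads were not run, and voom stands in for them. Few reads limit miR-211-5p, miR-338-5p and miR-135a-5p.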
